A study of Sus scrofa with 27 samples.

Results

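The genes described here make, take up, move, store and export cholesterol, and were measured by RNA sequencing in mural granulosa cells (GCs), the layer of hormone-producing cells that lines the wall of the ovarian follicle. The 36 genes were chosen by name: 18 enzymes of cholesterol synthesis, 4 genes of lipoprotein uptake, 5 genes of the SREBP control system, 5 genes of trafficking and storage, and 4 genes of efflux and the LXR receptors. All 36 passed the filter, a mean of 5 or more counts over 27 libraries, and they stood among 11388 genes tested. Every comparison was of feed-restricted (RES) with full-fed (FF) sows, first in level and then in the correlation with CYP11A1, the enzyme that starts steroid hormone synthesis from cholesterol.

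The animals were wild-type primiparous sows of a Large White by Norwegian Landrace cross. FF sows (n = 13) were given 6.5 kg of feed per day and RES sows (n = 14) 3.25 kg per day over the last 2 weeks of lactation, and both groups then received the same feed until ovary collection on day 2 after weaning. The sows had been picked from larger feeding groups as those that lost most weight under restriction and least weight under full feeding, so the contrast was one of diet together with that selection. GCs were cut by laser from the largest healthy follicle of each sow, and each library therefore stood for 1 follicle of 1 animal. The paper reports that these follicles were on average smaller in RES than in FF sows. Follicle size thus differed along with diet, and its part in the results below was not tested.

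Follicular cells need cholesterol as the substrate of every steroid hormone. They can build it from acetyl-CoA through the mevalonate and sterol pathways, or take it up from lipoproteins through surface receptors. When sterol in the endoplasmic reticulum is low, SCAP escorts the SREBP transcription factors to the Golgi, where they are cut free and switch on synthesis and uptake genes, whereas INSIG proteins hold SCAP back when sterol is plentiful. Excess cholesterol is esterified for storage or exported by ABC transporters under the LXR nuclear receptors.

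The SREBP factors bind a sterol regulatory element in promoters, usually beside binding sites for NF-Y and Sp1. The letters TCACNCCAC, searched on both strands of the 250 bases upstream of the RefSeq gene start (Sscrofa11.1), were found in 4 of the 35 cholesterol genes with a matched RefSeq start (11.4%) and in 157 of 19556 genes of the annotation (0.803%). They are shown here because they fell in genes of different roles that are described below: the first committed enzyme of sterol building (HMGCS1), squalene epoxidase (SQLE), the gene of one of the SREBP factors (SREBF2) and a lipase that frees cholesterol from its esters (LIPE). Each window is 60 bases of the gene's own strand, with the match in capitals. The windows are chr16:27957408-27957467 (minus strand), chr4:14700295-14700354 (minus), chr5:6784783-6784842 (minus) and chr6:49543546-49543605 (plus), in that order, and the match in LIPE is the reverse complement of the searched letters.
HMGCS1: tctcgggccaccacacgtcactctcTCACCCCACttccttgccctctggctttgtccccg
SQLE: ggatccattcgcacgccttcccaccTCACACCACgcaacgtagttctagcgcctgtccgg
SREBF2: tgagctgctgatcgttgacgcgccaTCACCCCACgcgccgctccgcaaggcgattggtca
LIPE: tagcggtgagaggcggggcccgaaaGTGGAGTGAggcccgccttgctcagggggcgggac

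The NF-Y letters CCAAT stood in the same upstream stretch of 22 of the 35 genes (62.9%, against 31.9% of all genes), and the Sp1 letters CCGCCC in 30 of 35 (85.7%, against 45.9%). The LXR element, a spaced direct repeat of receptor half-sites, was in 0 of the 35 and in 2 of all 19556 genes. A match of letters is a description of the sequence and not a shown binding site.

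The library totals were 12299220 to 16021200 counts in FF and 12942198 to 18120922 in RES, and the libraries correlated with each other at r = 0.92 to 0.99 over genes. The libraries fell into an upper and a lower group of read quality, with 7 FF and 7 RES libraries in the upper and 6 FF and 7 RES in the lower group, so that values within each group are given where they differ. The labels say that a sow FF09 was left out for low RNA integrity, but the study's quality tables have a row for each of FF-9 and FF-10, and the FF-10 row has the lowest integrity of all. It is therefore uncertain which row belongs to FF10, here placed in the lower group by its number, and values with FF10 in the upper group are given where a call turns on it (an alternative chosen after seeing the data). GC markers were abundant in sum: the summed normalised count of 8 measured markers was 71149 to 121913 in FF and 76754 to 146826 in RES, and 0 of the 8 were called (edgeR, which called 1609 of all genes). VCAN made up much of that sum, with a mean of 50758 in FF and 56380 in RES. FSHR had a mean of 568 and 783, and AMH of 5.68 and 7.32. Markers of other cells were present too. Of the tested markers, 0 of 7 for theca cells, 0 of 4 for immune cells, 0 of 6 for stroma and 0 of 1 for oocytes were called, whereas 3 of 6 endothelial markers, 2 of 5 smooth muscle and pericyte markers and 1 of 2 red cell markers were called, all lower in RES. The 7 theca markers left out CYP11A1, which the paper also lists as a theca marker and which is the partner gene below. CYP11A1 was lower in RES (log2 fold change −1.28, adjusted p = 0.0092 by edgeR). CYP17A1, one of the 7, stood at −1.11 (adjusted p = 0.052). The summed endothelial level was 1091 to 2315 in FF and 755 to 2289 in RES, the smooth muscle level 2799 to 8102 and 1883 to 7856, and the theca level 1663 to 5023 and 1611 to 4485. The stroma level was larger, at 13128 to 37246 in FF and 10645 to 34383 in RES. No listed marker was at 0 in all libraries, and the part of these cells in the results below was not tested. In such bulk samples, fewer cells of a type and less RNA per cell cannot be told apart.

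Most of the cholesterol genes did not differ between the diets beyond the spread between sows. In edgeR's quasi-likelihood test, 3 of the 36 genes were called at an adjusted p under 0.05 (8.33%, against 14.1% of all genes tested), all of them lower in RES (5.85% of all genes were called lower and 8.28% higher). These were SCAP, the SREBP escort, STARD4, a cytosolic sterol carrier, and TM7SF2, a sterol reductase late in the synthesis pathway. At an unadjusted p under 0.05 there were 9 of 36 (30.0% of all genes). The median log2 fold change of the 36 genes was −0.13, beside −0.02 over all genes, with 24 genes below 0 and 12 above.

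**Figure D1:**
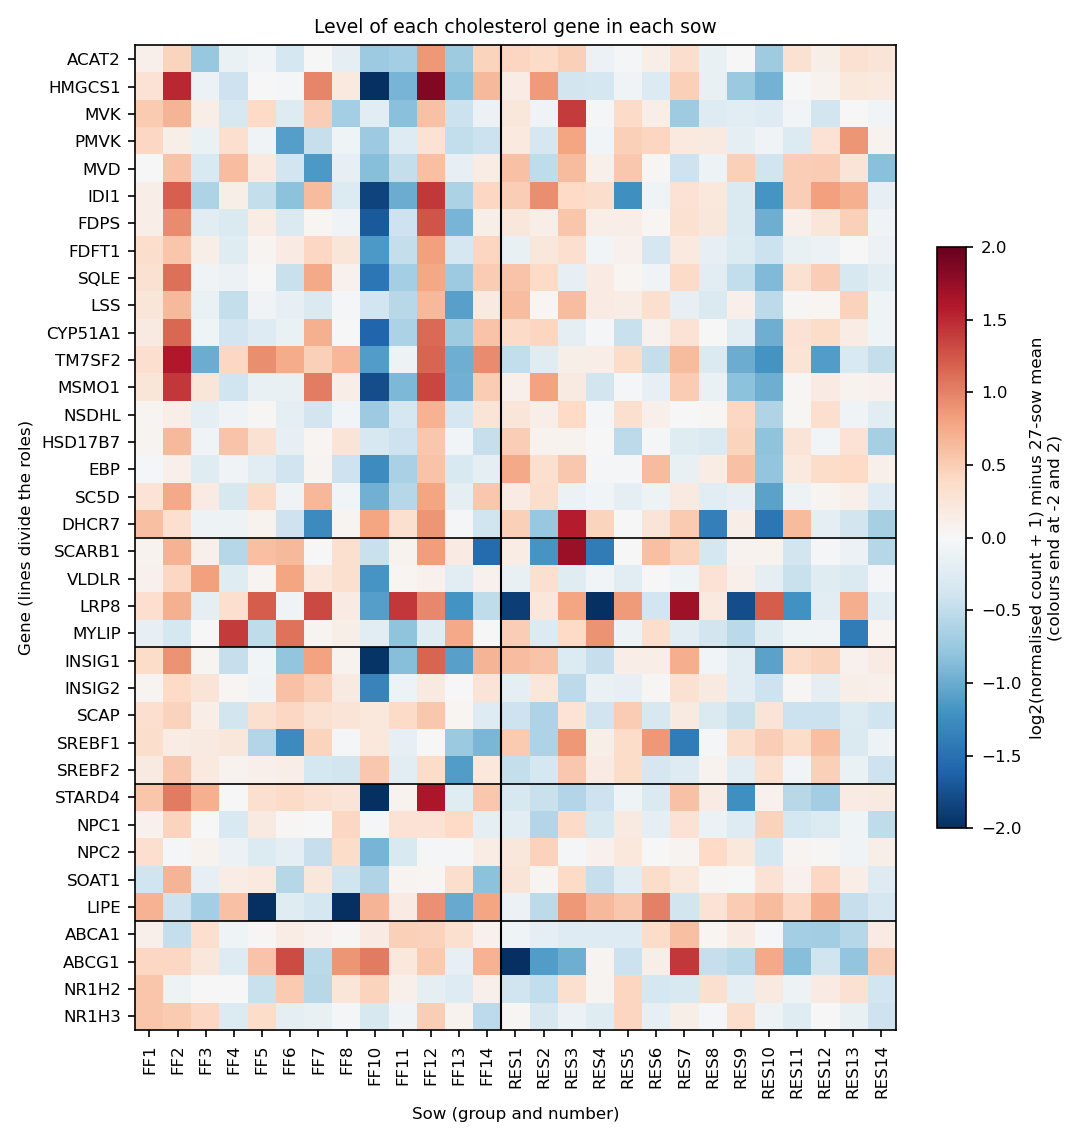
Each cell shows log2(normalised count + 1) of 1 gene (vertical axis, ordered by role) in 1 sow (horizontal axis) minus that gene's mean over the 27 sows, with red above and blue below the mean. The synthesis enzymes of FF2 and FF12 are almost all red and those of FF10 and RES10 almost all blue.

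Synthesis was the largest group, and 1 of its 18 genes was called. TM7SF2 had 41.7 ± 22.2 normalised counts among the FF sows (SD, n = 13) and 24.95 ± 9.77 among the RES sows (SD, n = 14). It ran from 12.7 through a median of 40.1 to 89.4 in FF and from 12.0 through 23.1 to 44.9 in RES. The ranges overlapped, but 13 of 14 RES sows lay below the FF median, and FF2, FF5, FF6, FF8, FF12 and FF14 lay above the highest RES sow. The log2 fold change was −0.77 with an SE of 0.26 (adjusted p = 0.042 by edgeR). This call held in 10 of the 27 fits that each left out 1 sow (those without FF1, FF3, FF4, FF10, FF11, FF13, RES4, RES5, RES7 or RES11) and was lost in the other 17, with adjusted p-values up to 0.0946. Within the upper quality group the log2 fold change was −1.12 (adjusted p = 0.038) and within the lower group −0.43 (adjusted p = 0.67). With FF10 in the upper group these were −0.99 (adjusted p = 0.10) and −0.60 (adjusted p = 0.50).

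EBP, the sterol isomerase, moved the other way without passing the threshold. It had 268 ± 76.6 normalised counts in FF and 365 ± 90.2 in RES, with a range of 127 to 453 in FF and 176 to 512 in RES. The FF median was 260.1, and 13 of the 14 RES values exceeded it. Its log2 fold change was 0.40 with an SE of 0.14 (adjusted p = 0.052 by edgeR). Without FF7, FF12, RES4, RES5, RES7 or RES10 the adjusted p fell to between 0.0152 and 0.0496, and DESeq2's test gave 0.040.

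The first steps of the pathway, which build and activate mevalonate, had no called gene. HMGCS1, which makes HMG-CoA, had a log2 fold change of −0.44 with an SE of 0.28 (adjusted p = 0.29), the acetyl-CoA thiolase ACAT2 0.16, the kinases MVK and PMVK −0.02 and 0.33, and the decarboxylase MVD 0.14. PMVK was nearest to the threshold among them, at an adjusted p of 0.15. The middle steps join isoprene units into squalene and close the sterol rings. Here the isomerase IDI1 had a log2 fold change of 0.08, the farnesyl diphosphate synthase FDPS 0.01, the squalene synthase FDFT1 −0.24, SQLE −0.14 and the cyclase LSS 0.13.

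The late steps trim lanosterol to cholesterol. The demethylase CYP51A1 had a log2 fold change of −0.17, the methyl oxidase MSMO1 −0.31, the dehydrogenases NSDHL and HSD17B7 0.11 and −0.18, and the desaturase SC5D −0.30. DHCR7, the last reductase, stood at −0.02 with 15.2 ± 5.87 and 15.3 ± 9.65 normalised counts. Of the SC5D exon bases, 66.5% are shared with a non-coding RNA on the opposite strand, and since no strand setting was stated for the counting its value is uncertain. The 18 synthesis genes had a median log2 fold change of −0.02, with 10 below 0 and 8 above.

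**Figure D2:**
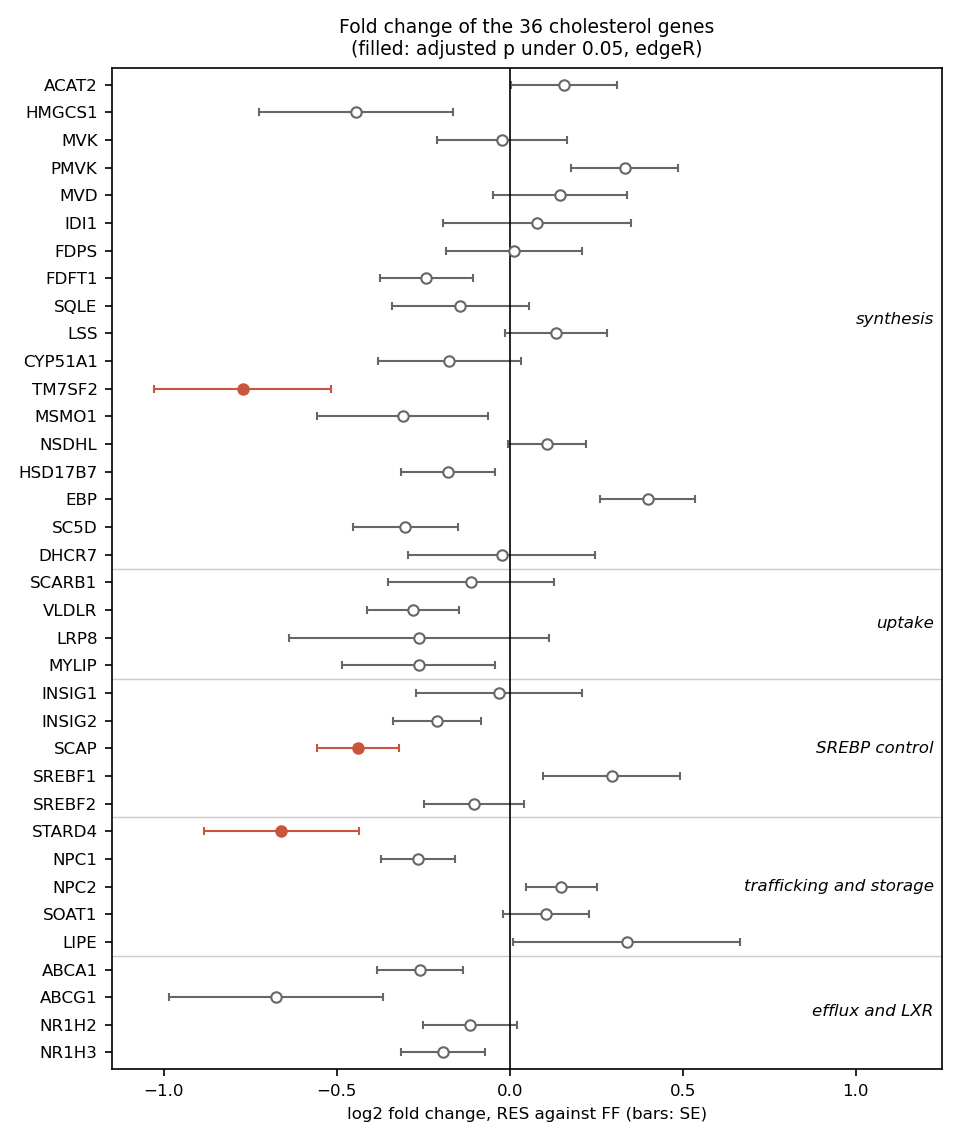
Points show the log2 fold change of each cholesterol gene (vertical axis, by role) in RES against FF with its SE as bars, and filled points have an edgeR adjusted p under 0.05. The 3 filled points (TM7SF2, SCAP and STARD4) lie left of 0, between −0.77 and −0.44, and the remaining points scatter on both sides.

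Most of the synthesis enzymes varied between sows more than they differed between diets, and most varied together. The log2 fold changes of FDFT1, TM7SF2 and EBP were larger than the SD of their log2 levels in RES, though not in FF. HMGCS1 ran from 365 through a median of 1727 to 6273 in FF and from 905 through 1700.2 to 3122 in RES. The medians were close, and all of the RES values lay inside the FF range. MSMO1 spanned 376 to 3437 in FF and 654 to 2253 in RES, and CYP51A1 267 to 1790.4 and 409 to 1077. In FF the highest value of the 18 synthesis genes was in FF12 for 10 genes and in FF2 for 6, and the lowest in FF10 for 11. In RES the lowest was in RES10 for 14 of the 18 genes, and the highest was in RES3 for 7 and in RES2 for 5.

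On the log2(normalised count + 1) scale, the mean deviation of the 18 synthesis genes from their 27-sow means was 0.90 in FF12 and 0.77 in FF2, −1.01 in FF10 and −0.79 in RES10. The group means of this deviation were −0.02 ± 0.52 (SD) over the 13 FF sows and 0.02 ± 0.29 over the 14 RES sows. The SD between sows was larger in FF than in RES for 16 of the 18 synthesis genes (88.9%), beside 52.3% of all genes tested. Without FF10 it was 15 of 18, beside 38.2% of all genes. Without FF2 and FF12 it was 13 of 18, beside 52.9%, and without all 3 sows 11 of 18, beside 37.5%. These sows were chosen after their values were seen, and the difference in spread was given no test. FF12 was in the lower read quality group, FF2 and RES10 were in the upper, and the group and RNA integrity of FF10 are uncertain as said above. RES10 had a lower RNA integrity than all other RES libraries but RES3, and the part of RNA integrity in these levels was not tested.

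Within FF the pairwise correlation of the synthesis genes had a median r of 0.70 over 153 pairs (log2 scale), beside 0.01 over all gene pairs. The closest pair was HMGCS1 and CYP51A1, at r = 0.99. Without FF2, FF10 and FF12 the median was 0.50. In RES the median was 0.46 over the same pairs, beside 0.01 over all gene pairs, and 0.49 without RES7, but 0.21 without RES10. DHCR7 stood apart in FF, with a median r of −0.08 with the other 17 enzymes, whereas in RES it was 0.48 (0.28 without RES10). Outside the enzymes, INSIG1, a known SREBP target, and STARD4 followed the synthesis genes most closely in FF, at a median r of 0.85 and 0.81 (0.72 and 0.52 without FF2, FF10 and FF12). In RES the median r of INSIG1 with them was 0.47 (median rho 0.20) and that of STARD4 was −0.11, and without RES10 both were 0.08. SREBF2 and SCAP did not rank with these in FF (median r 0.24 for both). These correlations are descriptions over 13 and 14 follicles that share their library and its depth.

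The uptake genes included LRP8, the cholesterol gene with the most normalised counts on average in both diets. LRP8, a member of the lipoprotein receptor family that also binds the signalling protein reelin, had 9483 ± 5149.5 normalised counts in FF and 8083 ± 6035 in RES. In RES it ran from 656 in RES4 through a median of 6795 to 22129 in RES7, and in FF from 2958 through 8540.0 to 18140. The groups overlapped, although 4 of 14 RES sows lay below the lowest FF sow. The log2 fold change was −0.26 with an SE of 0.38 (adjusted p = 0.68 by edgeR). It was −1.11 (SE 0.54) in the upper and 0.37 (SE 0.38) in the lower quality group, and a test of that difference gave an unadjusted p of 0.0475. Of the 36 genes, 3 had an unadjusted p under 0.05 in this test (8.33%, against 12.3% of all genes), INSIG2 (p = 0.0197), VLDLR (p = 0.0418) and LRP8, and 0 of all genes passed after adjustment. With FF10 in the upper group the p-values were 0.24, 0.32 and 0.12, and 4.58% of all genes had such a p.

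Per kilobase of exon in the RefSeq annotation, the FF level was 1290 ± 700 for LRP8 (SD, n = 13). It was 819 ± 499 for MSMO1, 440 ± 320 for HMGCS1, 368 ± 192 for CYP51A1 and 324 ± 117 for SCARB1, the selective receptor for HDL cholesterol. LIPE at 1.83 ± 1.20 and ABCG1 at 2.38 ± 0.90 were the lowest. These levels per length differ from one another by less than their SD between LRP8 and MSMO1 and between HMGCS1, CYP51A1 and SCARB1, whereas MSMO1 and HMGCS1 differ by more than the SD of HMGCS1 and less than that of MSMO1. IDI1 had no length to compare.

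None of the 4 uptake genes was called at an adjusted p under 0.05 (1 of 4 at an unadjusted p under 0.05, and 0 of 4 adjusted in DESeq2's test). The nearest was VLDLR, the very low density lipoprotein receptor, with 886 ± 276 normalised counts in FF and 749 ± 116 in RES. It ran from 349 in FF10 through 836 to 1388 in FF and from 579.7 through 727 to 985 in RES, and 11 of 14 RES sows lay below the FF median. The log2 fold change was −0.28 with an SE of 0.13 (adjusted p = 0.16), and without FF10 it was −0.35 (adjusted p = 0.028). It was −0.51 (adjusted p = 0.032) in the upper and 0.02 (adjusted p = 0.98) in the lower quality group, and −0.39 (adjusted p = 0.24) and −0.13 (adjusted p = 0.81) with FF10 in the upper group. SCARB1 had a log2 fold change of −0.11, with the highest value, 2482.5 normalised counts, in RES3, and −0.33 without that sow. MYLIP, the ubiquitin ligase that marks lipoprotein receptors for breakdown, stood at −0.26. The median log2 fold change of the uptake genes was −0.26.

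Among the SREBP control genes, SCAP was lower in RES. It had 363 ± 61.6 normalised counts in FF, with a lowest value of 239.7, a median of 381 and a highest of 447. In RES it had 276 ± 73.0, with a lowest value of 200.5, a median of 240.5 and a highest of 437. The groups overlapped, but 13 of 14 RES sows lay below the FF median and 7 of 14 below the lowest FF sow. The RES values were split: 10 sows lay between 200.5 and 255 and the other 4 (RES3, RES5, RES7 and RES10) between 347 and 437. By the study's quality table, RES3, RES5 and RES10 were also the RES libraries of lowest RNA integrity, whereas RES7 was not among the low ones.

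The log2 fold change of SCAP was −0.44 with an SE of 0.12 (adjusted p = 0.013 by edgeR). It was called in all 27 fits that left out 1 sow, with log2 fold changes from −0.51 to −0.41 and adjusted p-values from 0.0029 to 0.0257. With RNA integrity as a covariate it was −0.42 (adjusted p = 0.016). Within the upper quality group the log2 fold change was −0.51 (adjusted p = 0.033), and within the lower group −0.38 (adjusted p = 0.37). The other control genes were not called. INSIG1 had a log2 fold change of −0.03, INSIG2 −0.21, SREBF2 −0.10 and SREBF1, the factor that also drives fatty acid synthesis, 0.29. INSIG2 was −0.48 (adjusted p = 0.013) in the upper and 0.11 (adjusted p = 0.89) in the lower quality group, −0.35 (adjusted p = 0.25) and −0.05 (adjusted p = 0.95) with FF10 in the upper group, and −0.28 (adjusted p = 0.040) without FF10.

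Of the trafficking and storage genes, STARD4 was lower in RES. It had 858 ± 421 normalised counts in FF, from 143 in FF10 through 783 to 1933 in FF12. In RES it had 554 ± 175, from 268 through 508 to 943. All RES values lay within the FF range and 13 of 14 below the FF median. The log2 fold change was −0.66 with an SE of 0.22 (adjusted p = 0.046 by edgeR). The call held in 9 of the 27 fits that left out 1 sow (those without FF4, FF10, FF11, FF13, RES7, RES8, RES10, RES13 or RES14) and was lost in the other 18, with adjusted p-values up to 0.103. It was −0.95 (adjusted p = 0.0081) in the upper and −0.41 (adjusted p = 0.71) in the lower quality group, and −0.79 (adjusted p = 0.099) and −0.63 (adjusted p = 0.38) with FF10 in the upper group.

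NPC1, the membrane protein that lets cholesterol out of lysosomes, had 502 ± 82.3 normalised counts in FF and 430.5 ± 101.7 in RES. Its log2 fold change was −0.27 with an SE of 0.11 (adjusted p = 0.093), and −0.32 (adjusted p = 0.032) without RES10 and −0.31 (adjusted p = 0.040) without RES7. Its lysosomal partner NPC2 stood at 0.15, the cholesterol-esterifying enzyme SOAT1 at 0.10, and LIPE at 0.34 with 6.90 ± 4.55 normalised counts in FF and 8.88 ± 3.34 in RES.

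**Figure D3:**
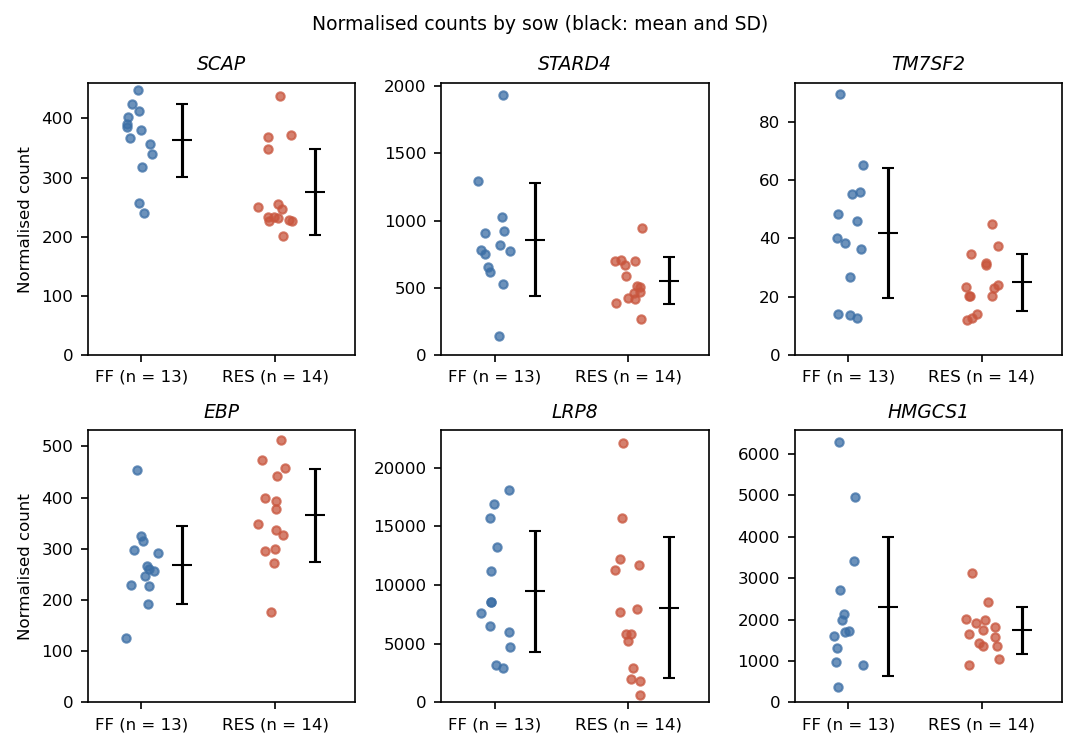
Each point is the normalised count (vertical axis) of 1 sow, for 6 of the genes, with FF in blue and RES in red and the mean ± SD beside them in black. SCAP, STARD4 and TM7SF2 sit lower in RES, EBP sits higher with an adjusted p of 0.052, and LRP8 and HMGCS1 overlap widely, with HMGCS1 spread over 365 to 6273 in FF.

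None of the 4 efflux and LXR genes was called (2 of 4 at an unadjusted p under 0.05, and 0 of 4 adjusted in DESeq2's test), and all 4 fold changes were below 0. ABCG1, a sterol exporter, had 15.3 ± 5.80 normalised counts in FF, from 7.02 through 14.4 to 27.5. In RES it had 9.83 ± 7.39, from 0.88 through 7.55 to 30.0 in RES7. Of the RES sows 11 of 14 lay below the FF median and 6 of 14 below the lowest FF sow. The log2 fold change was −0.68 with an SE of 0.31 (adjusted p = 0.14 by edgeR). It was −0.93 (adjusted p = 0.019) without RES7. The exporter ABCA1 stood at −0.26 (adjusted p = 0.16), and at −0.33 (adjusted p = 0.035) without RES7. The LXR receptor genes NR1H2 and NR1H3 stood at −0.11 and −0.19, and their group's median was −0.23.

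Other genes of sterol handling were counted from a separate list. Of 25 tested, 6 were called, 2 higher and 4 lower in RES (14.1% of all genes were called, 8.28% higher and 5.85% lower), with a median log2 fold change of −0.09. The higher ones were LBR, a sterol reductase of the nuclear membrane that carries out the same reaction as TM7SF2, at 0.73 (SE 0.14, adjusted p = 0.0019), and ERG28, a scaffold of the late synthesis enzymes, at 0.68 (SE 0.23, adjusted p = 0.041). LBR had 134 ± 41.1 normalised counts in FF and 229.99 ± 57.0 in RES. Among the lower ones were the lysosomal lipase LIPA (−0.34, adjusted p = 0.0077), MBTPS1, the protease that makes the first cut of SREBP (−0.34, adjusted p = 0.035), and the ubiquitin ligase RNF139 (−0.23, adjusted p = 0.041). Of 11 tested fatty acid synthesis genes, 1 was called: the desaturase SCD at 0.84 (SE 0.27, adjusted p = 0.036), with 375 ± 188 normalised counts in FF and 694 ± 377 in RES.

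The second comparison asked whether the cholesterol genes followed CYP11A1 from sow to sow within a diet. CYP11A1 itself had 548 ± 330 normalised counts in FF, from 194 through 485 to 1331, and 231 ± 180.1 in RES, from 78.3 through 189 to 752 (log2 fold change −1.28, SE 0.33, adjusted p = 0.0092 by edgeR). It is also expressed in theca cells, and the theca enzyme CYP17A1 correlated with it at r = 0.77 in FF and 0.94 in RES. Markers of other cells also followed it in RES: of the 24 tested markers of endothelial, immune, smooth muscle, stromal, red and egg cells, 13 had a permutation p under 0.05, all with r above 0 (16.1% of all genes, 9.19% with r above 0). The median r of the 24 was 0.56. In FF it was 1 of 24 (8.18% of all genes), and the median was −0.07. The highest in RES were KDR (0.88) and CDH5 (0.84) of endothelium, COL1A1 (0.82) of stroma, MYH11 (0.78) of smooth muscle and PTPRC (0.73) of immune cells, but DCN (−0.09) and LUM (−0.23) of stroma and CD68 (−0.20) of immune cells lay below 0. The part of theca and other cell RNA in the correlations below was not tested.

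In FF, 13 of the 36 genes had a permutation p under 0.05 with CYP11A1, all with r above 0 (8.18% of all genes had such a p, 5.01% with r above 0). After adjustment over all genes it was 0 of 36 and 0.0% of all genes. All 18 synthesis genes had r above 0, with a median of 0.53, and 8 of them (HMGCS1, IDI1, FDPS, LSS, CYP51A1, TM7SF2, MSMO1 and HSD17B7) had a p under 0.05. This rested on FF2 and FF12, the sows with the highest CYP11A1. Without those 2 sows 1 of the 18 synthesis genes had r above 0, their median was −0.26, and 1 of the 36 genes kept a p under 0.05 (529 of all 11387 genes had such a p). HMGCS1 had r = 0.65 (permutation p = 0.021, 0.53 after adjustment) and a rho of 0.30 (permutation p = 0.32) in FF, and r = −0.23 without FF2 and FF12. By Spearman's rho 4 of 36 genes had a p under 0.05 (7.74% of all genes).

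**Figure D4:**
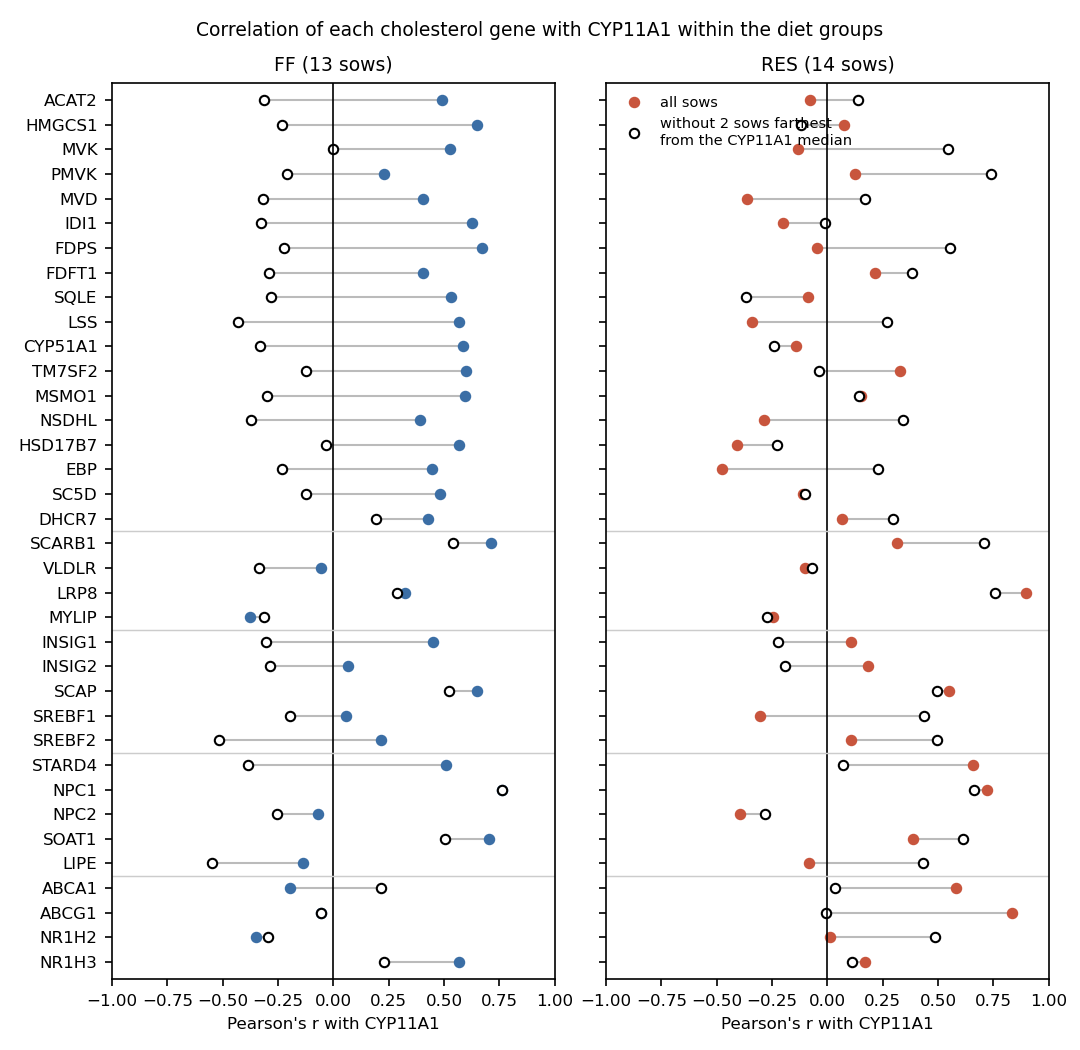
Filled points show Pearson's r of each cholesterol gene with CYP11A1 over all sows of a group and open points without the 2 sows farthest from the group's CYP11A1 median (FF2 and FF12, RES7 and RES10). In FF the synthesis genes move from a median r of 0.53 to −0.26, whereas NPC1 stays at 0.76.

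NPC1 was the gene that kept p under 0.05 in FF without those sows. In FF it had r = 0.76 (permutation p = 0.0013, 0.31 after adjustment) and a rho of 0.81 (permutation p = 0.0012), and r = 0.76 without FF2 and FF12. In RES it had r = 0.72 (permutation p = 0.0038, 0.15 after adjustment) and a rho of 0.76 (permutation p = 0.0024), and r = 0.66 without RES7 and RES10. Within the quality groups r was 0.88 and 0.37 in FF and 0.92 and 0.60 in RES, upper group first. With FF10 in the upper group the FF values were 0.88 and 0.20. The RES values were split as for SCAP, with 513 to 624 in RES3, RES5, RES7 and RES10 and 302 to 428 in the others. RES3, RES5 and RES10 had the lowest RNA integrity, and its part in this correlation was not tested. NPC1 thus rose with CYP11A1 in both diets, but did not pass the adjustment over all genes in either.

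In RES, 6 of the 36 genes had a permutation p under 0.05, all with r above 0 (16.1% of all genes, 9.19% with r above 0): LRP8, SCAP, STARD4, NPC1, ABCA1 and ABCG1. After adjustment over all genes 1 remained, LRP8 (0.342% of all genes were called). Over the 14 sows r of LRP8 was 0.90 (permutation p = 2e-05, 0.025 after adjustment), and its rho was 0.83 (permutation p = 3.9e-04, 0.10 after adjustment). Without RES7 and RES10 r was 0.76 (permutation p = 0.0052), and r was 0.98 and 0.95 in the upper and the lower quality group. Leaving out 1 RES sow kept r between 0.82 and 0.93. The adjusted call was lost without RES1, RES3, RES4, RES7, RES10 or RES12. The highest RES values of LRP8 were in RES7, RES10, RES5 and RES3 (11712 in RES3), with RES13 close behind at 11295. RES7, RES10, RES5 and RES3 were also the sows with high SCAP, and RES3, RES5 and RES10 those of lowest RNA integrity. The part of RNA integrity in this correlation was not tested. In FF the r of LRP8 was 0.32 (permutation p = 0.29, adjusted p = 0.86), with rho = 0.40 (permutation p = 0.18) and r = 0.29 without FF2 and FF12.

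SCAP had r = 0.65 (permutation p = 0.018, 0.51 after adjustment) and a rho of 0.62 (permutation p = 0.028) in FF, and 0.52 without FF2 and FF12. In RES its values fell into a low and a high set of sows, and among the 10 low sows r was 0.40 and rho 0.35, given as a description. The pooled RES correlation was r = 0.55 (permutation p = 0.043, adjusted p = 0.30) with rho = 0.63 (permutation p = 0.018), and 0.50 without RES7 and RES10. SCAP had r = 0.66 and 0.50 in the upper and lower quality groups of FF, and 0.92 and 0.36 in those of RES.

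ABCG1 had r = 0.83 in RES (permutation p = 0.0037, adjusted p = 0.15), but rho = 0.41 (permutation p = 0.15) and r = −0.01 without RES7 and RES10, so the relation rested on those sows. In FF it had r = −0.05 (permutation p = 0.86, adjusted p = 0.99). STARD4 in RES went from r = 0.66 to 0.07 without those sows (rho = 0.30, permutation p = 0.29). ABCA1 went from 0.58 to 0.03 (rho = 0.17, permutation p = 0.56), so both also rested on them. By Spearman's rho 6 of 36 genes had a p under 0.05 in RES (11.7% of all genes). They were LRP8, SCAP, NPC1, SCARB1, SOAT1 and, with rho below 0, NPC2. EBP had the largest absolute r among the synthesis genes in RES, at −0.47 (permutation p = 0.091, adjusted p = 0.39), with rho = −0.16 (permutation p = 0.58), and it turned to 0.23 without RES7 and RES10. The synthesis genes as a whole had a median r of −0.10 in RES, with 6 of 18 above 0 and 0 at a p under 0.05. Without RES7 and RES10 the median turned to 0.16, with 11 of 18 above 0 and 1 at a p under 0.05, PMVK, whose r went from 0.13 to 0.74 (permutation p = 0.0057). Over all 11387 genes the median r without those sows was 0.11, with 6747 above 0 and 1748 at a p under 0.05.

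SCARB1 and SOAT1 changed with the measure. In FF SCARB1 had r = 0.71 (permutation p = 0.0055, 0.40 after adjustment) and a rho of 0.66 (permutation p = 0.017), and r = 0.54 without FF2 and FF12. In RES it had r = 0.31 (permutation p = 0.18) and rho = 0.61 (permutation p = 0.023), and r rose to 0.71 without RES7 and RES10. SOAT1 had r = 0.70 (permutation p = 0.0072, 0.40 after adjustment) and a rho of 0.64 (permutation p = 0.022) in FF, and r = 0.39 (permutation p = 0.17) and rho = 0.62 (permutation p = 0.022) in RES. Its r was 0.51 (permutation p = 0.11) without FF2 and FF12, and rose to 0.61 (permutation p = 0.036) without RES7 and RES10.

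**Figure D5:**
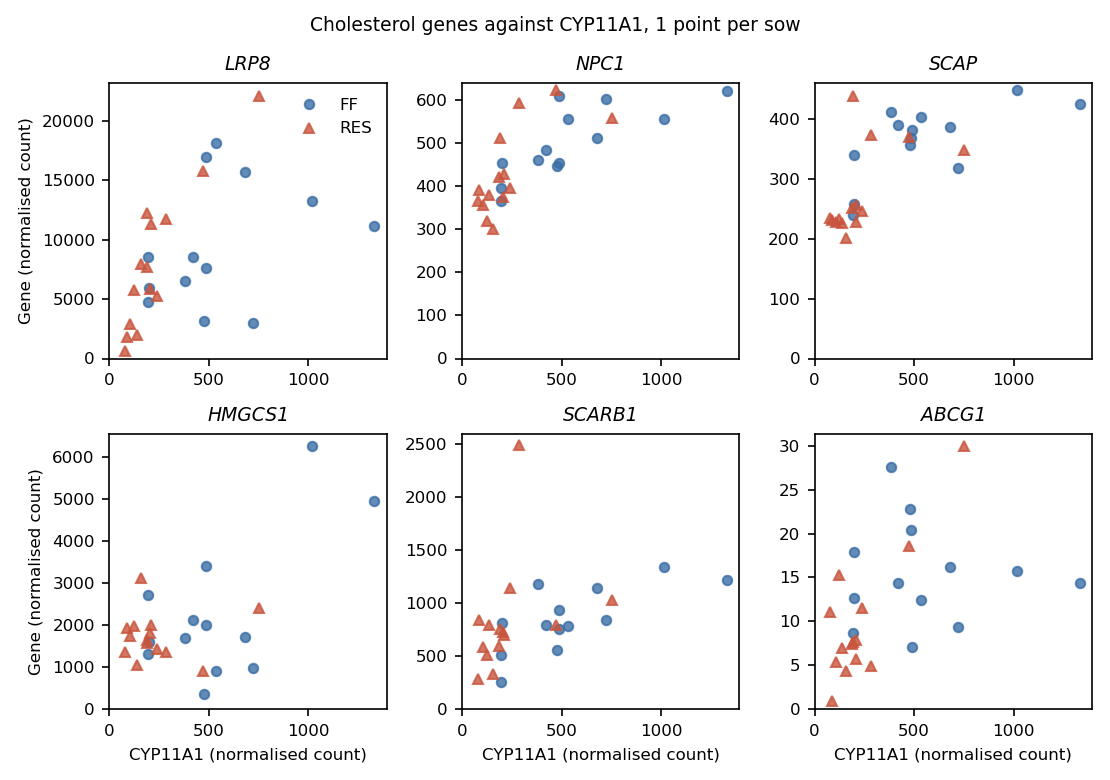
Normalised counts of 6 cholesterol genes (vertical axes) against those of CYP11A1 (horizontal axes), 1 point per sow, FF as circles and RES as triangles. LRP8 rises with CYP11A1 across the RES sows (r = 0.90), NPC1 in both groups, and the rise of HMGCS1 in FF comes from the 2 sows with the highest CYP11A1.

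The difference of r between the diets was tested by permuting the diet labels. Of the 36 differences 0 passed the adjustment over these genes. At an unadjusted p under 0.05 there were 2 of 36, LRP8 (r higher in RES by 0.57, permutation p = 0.043) and ABCG1 (higher by 0.89, permutation p = 0.049). The share over all genes was not computed for this test, and so few can arise by chance among 36 tests. With RES7 left out, or FF10, or on the log2 scale, 1 difference had such a p.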

How the data were processed

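The authors removed ribosomal RNA, made strand-marked libraries, aligned reads to Sscrofa11.1 with HISAT2 2.2.1, kept unique alignments with SAMtools 1.16.1, removed duplicates with UMI-tools 1.1.4, and counted exon reads per Ensembl 110 gene with featureCounts 1.6.2, with no strand option stated. The deposited values are raw counts, 1 table per sow, of 35670 identifiers. Of these, 17467 had a mean count of at least 5, and 11388 of those had a gene symbol in the Ensembl-matched reference table and entered the tests, after 34 small RNA symbols were left out. Symbols, lengths and upstream bases came from RefSeq for Sscrofa11.1.

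The main test was edgeR 4.0.16 (TMM scaling, quasi-likelihood F test, no covariate) with Benjamini-Hochberg adjustment over all 11388 genes and a call at adjusted p under 0.05. The SE of a fold change was taken as its size over the root of the F statistic. Normalised counts were divided by DESeq2 1.42.0 size factors. Correlations used these counts and 100000 two-sided permutations (smallest possible p 1e-05), adjusted over all genes except CYP11A1, and the difference of r was adjusted over the 36 genes. Log2 levels used a pseudocount of 1. Scripts ran in R 4.3.3 and Python 3.11.15 and were tested on simulated data. Each sow was a replicate, and precision is limited by 13 and 14 animals.

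Genes named in the text followed a fixed rule: all 36 with their fold change, those with an adjusted p under 0.05 or the smallest p of a role in full, and for CYP11A1 those called in a diet or with the largest absolute r of a role in RES. The members and the lists were chosen with earlier results of these data known. SCARB1, SOAT1, HMGCS1 and the genes named from the other sterol and fatty acid lists were added after their values were seen. A called gene of the sterol list is not reported here. Read quality groups were split at the gap in the share of bases at a quality score of 20. The alternatives, which include DESeq2's test, other filters and scalings, quality and RNA integrity as covariates, a block for the sow number and leaving out each sow, are given in the closing section.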

Additional observations from a re-analysis of the deposited data

How the results depend on the processing

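The 3 calls among the cholesterol genes stayed 3 with DESeq2 size factors, with edgeR's own count filter, and with the quality group or RNA integrity as a covariate, and were 4 with DESeq2's test (EBP added). With all identifiers they were 2 (SCAP and EBP). With no filter on counts there was 1 (SCAP), in the upper quality group alone 5 (INSIG2 and VLDLR added, with 2026 of all genes called), in the lower group alone 0 (where 1 of all genes was called), and leaving out 1 sow gave 1 to 7 (7 without RES7, 5 without FF10 and 4 without RES10, where 2350, 2085 and 1863 of all genes were called, and 1181 to 2350 over these fits). Of all genes, 1609 were called in the test as reported, 1918 with DESeq2's test, 2263 with all identifiers and 1481 with no filter. With FF10 counted in the upper group, chosen after seeing the data because its row in the quality table is uncertain, there was 1 in the upper (SCAP, with 1034 of all genes called) and 0 in the lower group (where 0 of all genes were called). The quality and RNA integrity covariates used the row of its number. Without RES3 and RES5, also chosen after seeing the data, there were 3 (NPC1 in place of STARD4). SCAP was called in each of these except the lower group, with or without FF10.

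Members that were not called changed sign: with all identifiers MVK to 0.031, DHCR7 to 0.029 and INSIG1 to 0.0085; with the quality covariate FDPS to −0.0015; with RNA integrity FDPS to −0.0082 and DHCR7 to 0.0062; in the upper group IDI1 to −0.0209, FDPS to −0.12 and DHCR7 to 0.31; in the lower group MVK to 0.085, MVD to −0.0165, MSMO1 to 0.0944, VLDLR to 0.0189, LRP8 to 0.37, INSIG1 to 0.14, INSIG2 to 0.11 and SREBF1 to −0.0033; with FF10 in the upper group, HSD17B7 to 0.0196 and DHCR7 to 0.14 there, and in the lower group MVK to 0.0346, MVD to −0.13, IDI1 to −0.0043, FDPS to −0.0582, NSDHL to −0.0541, LRP8 to 0.20, SREBF2 to 0.0594 and NR1H2 to 0.0; without RES3 and RES5 FDPS to −0.0213 and INSIG1 to 0.0072. Leaving out 1 sow, the log2 fold changes ran from −0.18 to 0.0407 for MVK, −0.0048 to 0.26 for IDI1, −0.0661 to 0.17 for FDPS, −0.22 to 0.0604 for DHCR7 and −0.12 to 0.10 for INSIG1. With no change of sign they ran from −0.54 to −0.22 for HMGCS1, −0.22 to −0.03 for SQLE, −0.25 to −0.06 for CYP51A1, −0.39 to −0.17 for MSMO1, −0.33 to −0.04 for SCARB1, −0.48 to −0.15 for LRP8, −0.37 to −0.10 for MYLIP, −0.17 to −0.05 for SREBF2, −0.16 to −0.07 for NR1H2, 0.11 to 0.27 for ACAT2, 0.08 to 0.21 for MVD, 0.07 to 0.21 for LSS, 0.07 to 0.19 for NSDHL, 0.06 to 0.18 for SOAT1 and 0.22 to 0.45 for LIPE. Among the first 8 of these, the values nearest 0 came without FF12 (HMGCS1, SCARB1), FF2 (SQLE, CYP51A1, MSMO1), FF11 (LRP8), FF4 (MYLIP) and FF10 (SREBF2).

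The sow numbers shared by FF and RES came with no stated pairing, and same-numbered sows did not deviate together (r −0.24 to 0.31 over 13 pairs, 0 closest to their own number). With the sow number as a replicate block, 2 members were called (SCAP and EBP) and INSIG1 stood at 0.14. Of all genes, 1086 were called with the block, beside 1609 without it.

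For CYP11A1 in FF, the count of 13 at an unadjusted p under 0.05 was 4 by Spearman's rho, 4 on the log2 scale, 1 without the 2 farthest sows, and 3 to 15 leaving out 1 sow. In RES the single adjusted call was lost by Spearman's rho and without the 2 farthest sows (0 each), and leaving out 1 sow gave 0 or 1. EBP turned to −0.23 in FF and 0.23 in RES without the 2 farthest sows. ABCG1 turned to 0.047 in FF on the log2 scale, to −0.0063 in RES without the 2 farthest sows, and ran from −0.19 to 0.0537 in FF leaving out 1 sow. The cause of these changes was not tested. The effect of depth was not tested, and LIPE, ABCG1, DHCR7 and MVD rested on few counts per library.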
